A study of Mus musculus with 8 samples.

Results

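Heme and iron handling was followed in the livers of 4 TrxR1/Gsr-null and 4 wild-type (WT) mice through 10 genes, Slc48a1, Alas1, Hmox1, Blvra, Blvrb, Tfrc, Trf, Fth1, Ftl1 and Hamp. The genes were chosen by name, with earlier results of these data known. Every probe set that the platform annotation pairs with exactly 1 of them was taken. That gave 17 probe sets of 22690 on the array, for 8 of the 10 genes. The annotation pairs the 3 probe sets of Ftl1 and the 1 probe set of Trf with further genes as well, so Ftl1 and Trf have no value here. All animals were female, 4 weeks old and labelled C57BL/6J, and each liver was hybridised to 1 Affymetrix array. TrxR1, the product of Txnrd1, reduces thioredoxin in the cytosol, and Gsr reduces oxidised glutathione. The labels do not say how, or in which cells, the 2 genes were disrupted, nor whether the groups were littermates. They call each array a biological replicate.

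Heme is made in mitochondria from glycine and succinyl-CoA, and in liver much of it goes into cytochromes P450. Heme oxygenase opens the ring to biliverdin, carbon monoxide and iron, and biliverdin reductases make bilirubin from biliverdin. Iron enters cells from plasma transferrin through the transferrin receptor, is stored in ferritin, and is released to the blood under the control of hepcidin, a hormone that hepatocytes secrete. The submitters' title names the Nrf2 response, in which the transcription factor Nrf2 induces genes against oxidants and electrophiles, several genes of heme breakdown and iron storage among them.

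Of the 8 measured genes, 4 rose in TrxR1/Gsr-null liver and none fell. Slc48a1, Tfrc, Blvrb and Alas1 rose 13.8-fold, 9.96-fold, 5.94-fold and 3.92-fold. Hmox1, Blvra and Fth1 had higher means and Hamp a lower mean without passing the test. A gene was called when its limma p, adjusted by Benjamini-Hochberg over 7534 genes, was below 0.05, and folds are powers of 2 of the difference between group means of log2 values. Over all 7534 genes 6.62% were called, 4.47% higher and 2.15% lower. The median log2 difference was 1.71 over the 8 genes and 0.10 over all genes tested. Because the 8 genes were chosen with earlier results known, setting them beside all genes is a description only. After further quantile normalization of the arrays the calls over all genes were 314 higher and 272 lower, in place of 337 and 162, and the 4 member calls remained. At an unadjusted p below 0.05, 5 of the 8 were higher and 1, Hamp, was lower, against 14.9% and 7.92% of all genes, so the lower count is near the background. By size of difference Slc48a1 was 13th, Tfrc 24th, Blvrb 50th and Alas1 95th of the 7534 genes. The 4 called genes were also those whose 4 TrxR1/Gsr-null values all lay above the 4 WT values, as 10.7% of all genes did. None of the 8 had all TrxR1/Gsr-null values below all WT values, as 5.84% of all genes did, and 16.6% had no overlap either way. For each of the 4, an exact permutation test over the 8 arrays gave p = 0.0286, two-sided, the smallest that 4 against 4 allows. Groups without overlap always give this value, so it repeats the missing overlap and is no separate evidence.

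**Figure D1:**
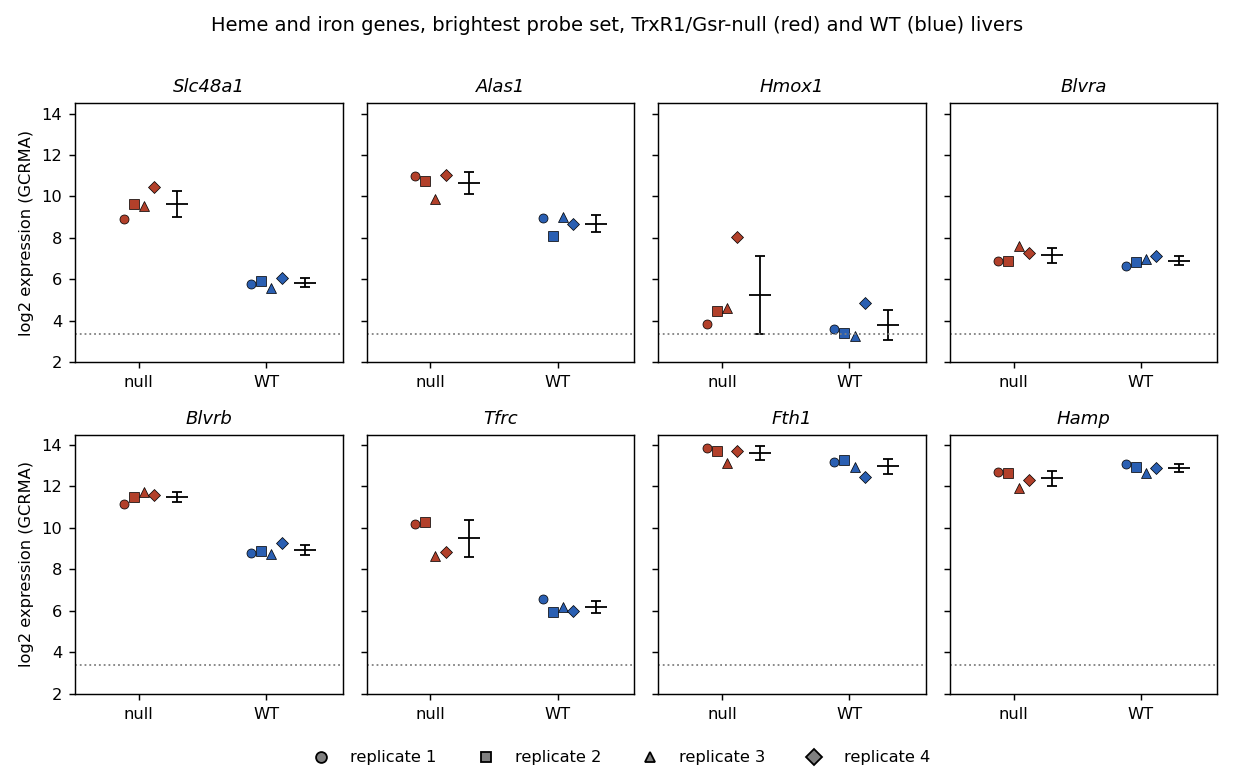
Log2 expression (y axis) of the brightest probe set of each of the 8 measured genes in 4 TrxR1/Gsr-null livers (red, left) and 4 WT livers (blue, right). Symbols mark the replicate number, bars give the mean ± SD (n = 4), and the dotted line is the low-value limit of 3.38. Slc48a1, Alas1, Blvrb and Tfrc have no overlap between the groups, and a single TrxR1/Gsr-null liver stands high for Hmox1.

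Among the targeted genes, Gsr at its brighter probe set read 6.02, 5.89, 5.82 and 6.31 in TrxR1/Gsr-null livers, against 7.03, 7.21, 7.21 and 7.20 in WT livers, a 2.23-fold fall (adjusted p = 0.00336 over all probe sets that are not controls). Txnrd1, at its single probe set above background, read 12.07, 12.01, 11.65 and 11.96 in TrxR1/Gsr-null livers, against 9.90, 9.93, 9.88 and 9.56 in WT livers, 4.31-fold higher rather than lower (adjusted p = 0.000156). Which exons were removed is not in the labels, and a probe set outside the removed part checks no label. Interquartile ranges of the arrays were 4.31 to 4.44 log2 units in TrxR1/Gsr-null livers and 4.44, 4.38, 3.97 and 3.74 in WT replicates 1 to 4. The narrower WT replicates 3 and 4 were left out together as an alternative. Across all genes, replicates 1 and 2 also varied apart from replicates 3 and 4 in both genotypes, and the labels name no batch, so values within each pair of replicates are given beside the called heme and iron genes.

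Heme import was represented by Slc48a1, a membrane protein that carries heme out of endosomes and lysosomes into the cytosol and is best known from macrophages that take up red cells. Its brighter probe set read 8.92, 9.63, 9.53 and 10.45 in TrxR1/Gsr-null livers, against 5.76, 5.91, 5.61 and 6.09 in WT livers. The lowest TrxR1/Gsr-null liver was more than 2 log2 units above the highest WT liver. The difference was 3.79 ± 0.29 (SE) on the log2 scale, with adjusted p = 7.16e-05. The second probe set read 8.75, 9.54, 8.57 and 9.40 in TrxR1/Gsr-null livers, against 6.03, 5.58, 6.02 and 5.56 in WT livers, 9.63-fold (adjusted p = 0.000166 over all probe sets). The 2 probe sets therefore gave the same direction in all 8 livers, with different orders among the livers of a genotype. Within replicates 1 and 2 the difference was 3.44 and within replicates 3 and 4 it was 4.14, both called (adjusted p = 0.00237 and 0.0109).

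Over the 8 arrays, the 3 tested genes whose values ran most like those of Slc48a1 were Gipc2 (Pearson r = 0.992), Abcc5 (r = 0.992), which encodes an efflux pump, and Entpd5 (r = 0.989), a nucleotidase. They differed by 3.95, 3.75 and 2.20 log2 units between the genotypes, so these coefficients mostly describe the genotype difference that the 8 points share.

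Heme synthesis was represented by Alas1, the 5-aminolevulinate synthase that sets the rate of the pathway in liver. Its brighter probe set read 10.98, 10.74, 9.88 and 11.04 in TrxR1/Gsr-null livers, against 8.96, 8.10, 9.01 and 8.69 in WT livers. TrxR1/Gsr-null replicate 3 was the lowest of its group and still above every WT liver. The difference was 1.97 ± 0.30 (SE) on the log2 scale, with adjusted p = 0.00428. It was 2.33 within replicates 1 and 2 (adjusted p = 0.0125) and 1.61 within replicates 3 and 4, where it was not called (adjusted p = 0.098).

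The second Alas1 probe set, of the kind that can also bind other transcripts, read 9.41, 9.77, 8.90 and 9.86 in TrxR1/Gsr-null livers, against 8.24, 8.20, 8.38 and 9.69 in WT livers. WT replicate 4 stood apart here, at a level of the TrxR1/Gsr-null group, while at the brighter probe set it read 8.69. This probe set differed by 0.86 log2 units and was not called (adjusted p = 0.264 over all probe sets). Without WT replicate 4 the difference was 1.21 and was called (adjusted p = 0.0365).

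The RefSeq promoter windows of assembly GRCm38.p6, 250 bases before to 50 after an annotated start, held 7 of the 10 genes, Alas1, Blvra, Blvrb, Tfrc, Fth1, Ftl1 and Hamp. They were searched on both strands for 4 motifs: TGACNNNGC, the core of the antioxidant response element to which Nrf2 binds, the palindrome of nuclear respiratory factor 1, GGCGCC, the core of the bone morphogenetic protein (BMP) response element, and TTCNNNGAA, a STAT site. A match is a description of letters and not of binding, and the motifs were chosen with these genes known. The nuclear respiratory factor palindrome began at base 30 of the upstream start of Alas1, counted with the start as base 1, and 0.971% of all 32851 windows held it. It is shown because Alas1 is the synthesis gene that rose, in capitals within 30 bases of the minus strand at chr9:106247905-106247934.
Alas1: gcacccaagGCGCATGCGCggcggtcactc
A STAT match also began 171 bases before that start of Alas1.

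Heme breakdown was represented by 3 enzymes, of which 1 was called. Blvrb, the biliverdin reductase that also reduces flavins, read 11.16, 11.50, 11.73 and 11.60 in TrxR1/Gsr-null livers, against 8.80, 8.90, 8.74 and 9.26 in WT livers. The values within each genotype lay within 0.6 log2 units of each other, and the groups were far apart. The difference was 2.57 ± 0.20 (SE), with adjusted p = 6.82e-05. It was 2.48 within replicates 1 and 2 and 2.66 within replicates 3 and 4, both called (adjusted p = 0.00237 and 0.0152).

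Blvra, the biliverdin reductase that makes the bilirubin of adult bile, read 6.87, 6.91, 7.61 and 7.26 in TrxR1/Gsr-null livers, against 6.64, 6.85, 6.97 and 7.14 in WT livers. The groups overlapped. The difference was 0.26 ± 0.21 (SE) with a 95% interval of -0.22 to 0.74, and adjusted p = 0.51. In both genotypes replicates 3 and 4 read higher than replicates 1 and 2.

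Of the 2 biliverdin reductases, Blvrb was thus called and Blvra was not. Whether their genotype differences differ from each other was not tested.

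Hmox1, the inducible heme oxygenase and a widely used Nrf2 target, read 3.87, 4.46, 4.64 and 8.05 in TrxR1/Gsr-null livers, against 3.62, 3.44, 3.29 and 4.88 in WT livers. TrxR1/Gsr-null replicate 4 was more than 3 log2 units above the other livers of its genotype, and replicate 4 was also the highest WT liver. The difference was 1.45 ± 0.79 (SE), with a 95% interval of -0.31 to 3.21, and was not called (adjusted p = 0.314). Without TrxR1/Gsr-null replicate 4 it was 0.52 (adjusted p = 0.492). The other 3 TrxR1/Gsr-null values lay between the second highest and the highest WT value, not far above the low-value limit of 3.38, and WT replicate 3 was under that limit. A rise of the size seen for Blvrb lies inside the interval, so the missing call does not show that Hmox1 did not differ.

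The antioxidant response element core TGACNNNGC occurred in 12.4% of all windows and, among the 7 genes, in that of Blvra, where it began 49 bases before the start on the opposite strand. It was not in the windows of Blvrb, Tfrc, Alas1, Fth1, Ftl1 or Hamp. Of the 9 called genes of the other lists described below, 5 had a window and could be searched: Abcg2, Lcn2, Hfe, Il6ra and Bach1. Among these 5, only Hfe held the core, 67 bases before its start. The stretches of Blvra (plus strand, chr2:127070547-127070656) and Hfe (minus strand, chr13:23710855-23710964) are shown, with the core in capitals, as a gene that was not called and a gene that rose.
Blvra: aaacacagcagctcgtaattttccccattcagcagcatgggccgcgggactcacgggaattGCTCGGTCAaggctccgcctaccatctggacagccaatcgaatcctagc
Hfe: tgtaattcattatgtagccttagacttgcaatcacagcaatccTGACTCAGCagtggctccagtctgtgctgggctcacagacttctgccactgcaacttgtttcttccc

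Iron uptake was represented by Tfrc, the transferrin receptor, whose transcript is known to be stabilised by the iron regulatory proteins when cell iron is low and which is abundant in dividing and erythroid cells. At its brightest probe set it read 10.19, 10.31, 8.65 and 8.82 in TrxR1/Gsr-null livers, against 6.58, 5.95, 6.21 and 5.97 in WT livers. The TrxR1/Gsr-null livers fell into replicates 1 and 2, above 10, and replicates 3 and 4, below 9, and all were more than 2 log2 units above the highest WT liver. The difference was 3.32 ± 0.38 (SE), with adjusted p = 0.000832. It was 3.99 within replicates 1 and 2 (adjusted p = 0.00116) and 2.64 within replicates 3 and 4 (adjusted p = 0.0134).

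The other 5 Tfrc probe sets, 3 of them controls for the ends and middle of the transcript, did not exceed the low-value limit on any array. The 2 standard ones averaged 2.40 ± 0.20 and 2.17 ± 0.15 in TrxR1/Gsr-null livers and 2.28 ± 0.34 and 2.29 ± 0.32 in WT livers (SD, n = 4 each). The controls for the 3′ end, the middle and the 5′ end averaged 2.76, 2.11 and 2.13 in TrxR1/Gsr-null livers and 2.61, 2.30 and 2.46 in WT livers. None of the 5 was called (adjusted p between 0.502 and 0.79), and their differences lay between -0.33 and 0.15. The rise of Tfrc therefore rests on 1 of its 6 probe sets. With the mean of the 3 standard probe sets in place of the brightest, the difference was 1.11 and was still called (adjusted p = 0.0048). That call draws on the brightest probe set alone, since the other 2 stayed under the low-value limit, and is no separate evidence.

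Iron storage was represented by Fth1, the ferritin heavy chain, which oxidises iron for storage. Its brighter probe set read 13.86, 13.73, 13.12 and 13.71 in TrxR1/Gsr-null livers, against 13.17, 13.29, 12.96 and 12.44 in WT livers. TrxR1/Gsr-null replicate 3 lay below the 2 highest WT livers, and the other 3 lay above all 4. The difference was 0.64 ± 0.24 (SE), with a 95% interval of 0.10 to 1.18, and it was not called (adjusted p = 0.149). The second probe set read 11.29, 11.66, 12.71 and 12.92 in TrxR1/Gsr-null livers, against 12.07, 11.82, 12.54 and 12.73 in WT livers. It differed by -0.15 (adjusted p = 0.879 over all probe sets), with replicates 3 and 4 above replicates 1 and 2 in both genotypes. The sign of this second probe set turned in 5 of the alternatives, so the 2 Fth1 probe sets give no common direction.

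Systemic iron control was represented by Hamp, which encodes hepcidin, the hormone that removes the iron exporter ferroportin from cell surfaces. Its brighter probe set read 12.69, 12.64, 11.93 and 12.33 in TrxR1/Gsr-null livers, against 13.11, 12.95, 12.63 and 12.88 in WT livers. The groups overlapped narrowly, since TrxR1/Gsr-null replicates 1 and 2 lay just above WT replicate 3. The difference was -0.50 ± 0.21 (SE), 1.41-fold, with a 95% interval of -0.97 to -0.02, and was not called (adjusted p = 0.203). The second probe set read 12.45, 12.46, 11.82 and 12.48 in TrxR1/Gsr-null livers, against 12.95, 12.83, 12.73 and 12.82 in WT livers, without overlap. It differed by -0.53 and was not called either (adjusted p = 0.17 over all probe sets). The difference was negative at both probe sets in every alternative that was run, and no alternative brought it past the threshold.

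The 150 bases before the start of Hamp (minus strand, chr7:30944030-30944179) held the BMP response element core and a STAT site, beginning 109 and 97 bases before it, the motif types through which BMP and interleukin 6 signals are known to act on hepcidin. They are shown in capitals because both signals have genes among those called below. All windows held GGCGCC in 11.9% of cases and TTCNNNGAA in 8.3%, and Tfrc also held GGCGCC, 89 bases before its start.
Hamp: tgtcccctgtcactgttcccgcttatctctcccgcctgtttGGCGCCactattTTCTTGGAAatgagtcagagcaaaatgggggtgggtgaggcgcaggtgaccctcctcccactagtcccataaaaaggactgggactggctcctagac

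Counted by probe set over all 22626 that are not controls, 5 of the 14 standard probe sets of the 8 genes were called higher and none lower, against 2.09% and 0.888% of all probe sets (2.97% either way, and 2.96% with controls included). At an unadjusted p below 0.05, 7 were higher and 2, both of Hamp, were lower, against 10.2% and 6.2% of all probe sets.

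**Figure D2:**
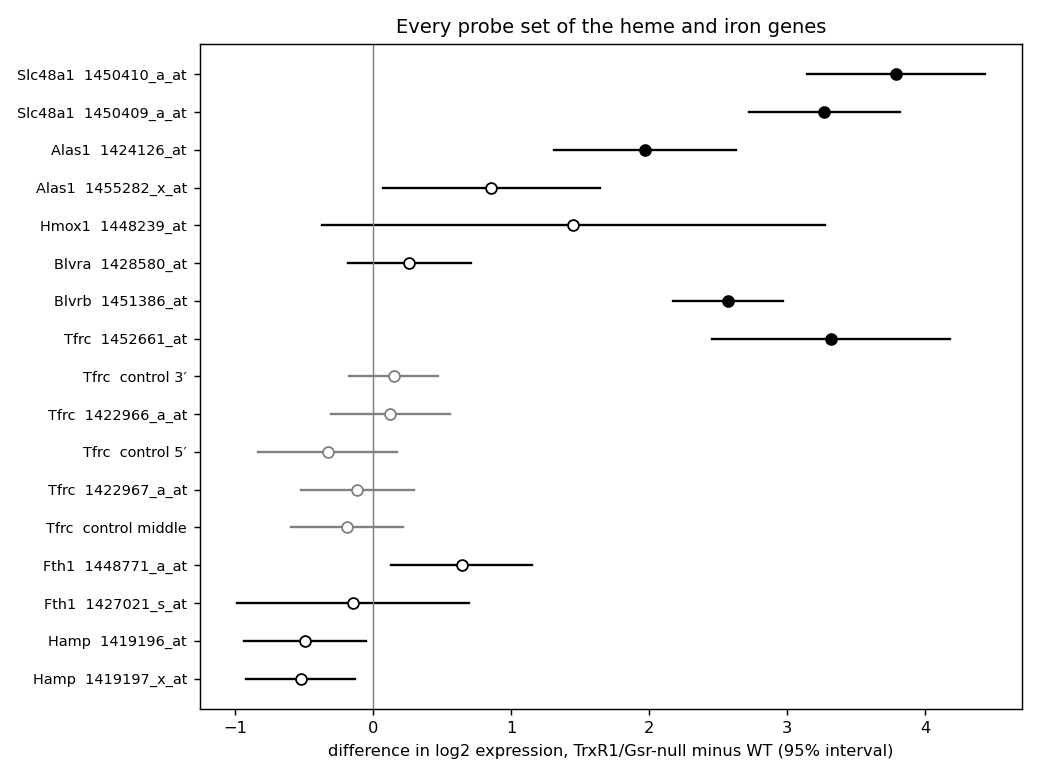
Difference in log2 expression, TrxR1/Gsr-null minus WT (x axis), with its 95% interval from the limma fit with controls included, for all 17 probe sets (rows, grouped by gene). Filled points were called, and grey marks the 5 Tfrc probe sets that stayed under the low-value limit on all arrays. The 2 Slc48a1 probe sets lie together, while Tfrc, Alas1 and Fth1 each have probe sets that differ from one another.

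Beyond the 8 genes, 8 lists of other heme and iron genes, also chosen with earlier results known, held 99 genes. A probe set was present for 88, and 79 were tested. Of these, 6 were called higher and 3 lower, together 11.4% against 6.62% of all genes, with a median log2 difference of 0.08, close to that of all genes. The called genes were Lcn2, Heph, Abcg2, Slc25a37, Hfe and Bach1 on the higher side and Id1, Il6ra and Smad7 on the lower side. At an unadjusted p below 0.05, 16 were higher and 11 lower, again against 14.9% and 7.92% of all genes. With the replicate number as a block the counts were 6 higher and 5 lower.

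**Figure D3:**
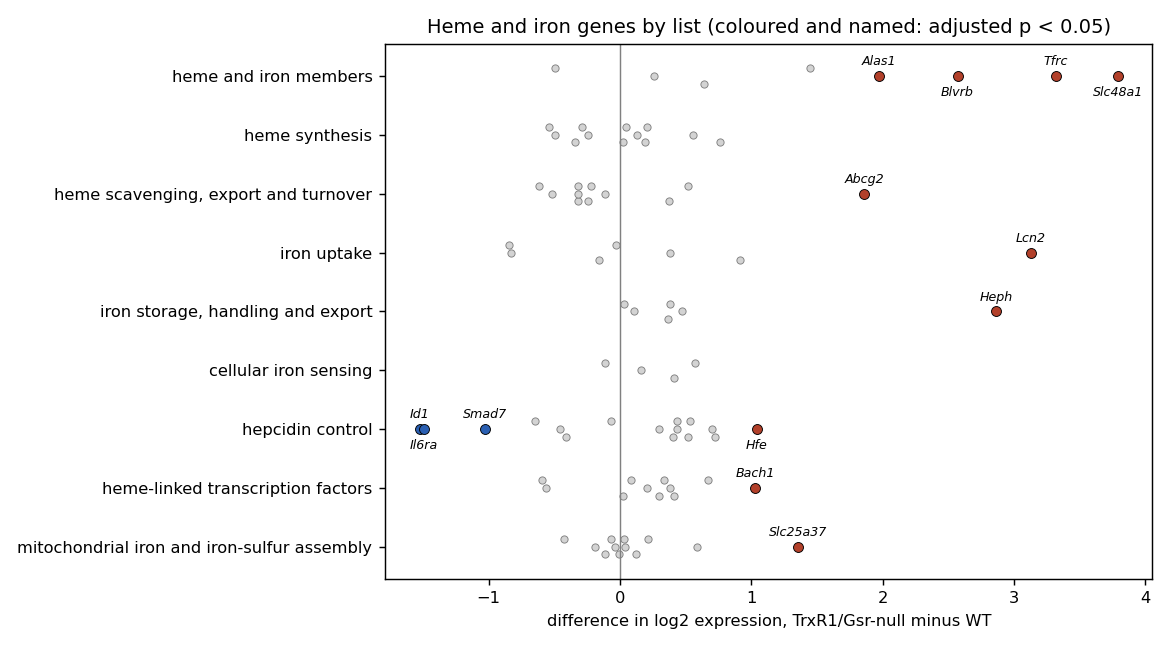
Difference in log2 expression, TrxR1/Gsr-null minus WT (x axis), of the 8 measured genes (top row) and of the 79 tested genes of the 8 lists. Called genes are named, in red where higher and blue where lower, and grey points were not called. The 3 called falls all lie in the hepcidin control list.

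None of the 12 tested heme synthesis genes besides Alas1 was called in the limma fit, and at an unadjusted p below 0.05 there were 2 higher and 2 lower. Their differences ran from -0.54 to 0.76, with a median of 0.04. Fech, the ferrochelatase that inserts the iron, averaged 10.24 ± 0.40 in TrxR1/Gsr-null livers and 9.69 ± 0.30 in WT livers (adjusted p = 0.205). Alad, the enzyme after Alas1, averaged 9.34 ± 0.28 in TrxR1/Gsr-null livers and 9.84 ± 0.30 in WT livers (adjusted p = 0.205). The difference seen at the first enzyme was thus not matched by a call at any later one.

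Of 11 genes of heme scavenging, export and turnover, 1 was called higher and none lower. Abcg2, an efflux pump that carries porphyrins among many substrates, read 10.25, 10.32, 10.26 and 10.42 in TrxR1/Gsr-null livers, against 8.43, 8.67, 8.46 and 8.24 in WT livers. The 4 TrxR1/Gsr-null livers lay within 0.2 log2 units of each other, and Abcg2 rose 3.63-fold (adjusted p = 0.000174). Its difference was 1.74 within replicates 1 and 2 and 1.99 within replicates 3 and 4, both called (adjusted p = 0.00656 and 0.0262). Hpx, the plasma protein that binds free heme, averaged 12.98 ± 0.48 in TrxR1/Gsr-null livers and 13.30 ± 0.18 in WT livers and was not called (adjusted p = 0.484).

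Of 7 genes of iron uptake, 1 was called higher and none lower. Lcn2, lipocalin 2, which binds iron-carrying siderophores and is also an acute phase protein, read 10.87, 10.96, 10.29 and 11.80 in TrxR1/Gsr-null livers, against 6.72, 8.60, 9.01 and 7.09 in WT livers. The WT livers spread over more than 2 log2 units, all below the lowest TrxR1/Gsr-null liver, and Lcn2 rose 8.73-fold (adjusted p = 0.0060). Its difference was 3.26 within replicates 1 and 2 (adjusted p = 0.0282) and 2.99 within replicates 3 and 4, where it was not called (adjusted p = 0.0848). Tfr2, the second transferrin receptor, which senses iron in hepatocytes, averaged 8.84 ± 0.58 in TrxR1/Gsr-null livers and 9.69 ± 0.52 in WT livers and was not called (adjusted p = 0.17).

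Of 6 genes of iron storage, handling and export, 1 was called higher and none lower, and all 6 differences were positive, with a median of 0.37. Over all genes, 4526 of 7534 differences were positive, with a median of 0.10. Heph, hephaestin, a copper oxidase that helps iron leave intestinal cells, read 6.50, 6.92, 6.73 and 6.995 in TrxR1/Gsr-null livers, against 3.72, 4.09, 4.12 and 3.76 in WT livers. The WT values lay just above the low-value limit, so the fold depends on how background was estimated, but the groups were more than 2 log2 units apart. Heph rose 7.29-fold (adjusted p = 2.77e-05), within replicates 1 and 2 by 2.81 and within replicates 3 and 4 by 2.92 log2 units, both called (adjusted p = 0.0024 and 0.0114). Cp, ceruloplasmin, the plasma oxidase of the same family, averaged 12.54 ± 0.14 in TrxR1/Gsr-null livers and 12.51 ± 0.33 in WT livers (adjusted p = 0.957).

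None of the 4 tested genes of cellular iron sensing was called in the limma fit, and at an unadjusted p below 0.05 there was 1 higher and none lower. That 1 was Skp1, which averaged 12.06 ± 0.16 in TrxR1/Gsr-null livers and 11.49 ± 0.10 in WT livers, without overlap (adjusted p = 0.0683). Aco1, which becomes iron regulatory protein 1 when it loses its iron-sulfur cluster, averaged 10.11 ± 0.14 in TrxR1/Gsr-null livers and 9.95 ± 0.14 in WT livers (adjusted p = 0.626).

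Of 16 genes of hepcidin control, 1 was called higher and 3 lower. Hfe, the partner of the transferrin receptors whose loss causes hemochromatosis, read 9.65, 9.74, 9.82 and 9.82 in TrxR1/Gsr-null livers, against 8.68, 8.58, 8.84 and 8.76 in WT livers. The groups did not overlap, and Hfe rose 2.06-fold (adjusted p = 0.00414). Its difference was 1.07 within replicates 1 and 2 (adjusted p = 0.0217) and 1.02 within replicates 3 and 4, where it was not called (adjusted p = 0.0901).

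Id1, a direct target of BMP signals through Smad proteins, read 6.24, 6.61, 6.02 and 7.27 in TrxR1/Gsr-null livers, against 8.93, 8.23, 7.07 and 7.99 in WT livers. TrxR1/Gsr-null replicate 4 lay above WT replicate 3, and the other livers did not overlap. Id1 fell 2.87-fold (adjusted p = 0.0453). The call was lost in 6 of the 8 fits that leave out 1 array, all except those that omit WT replicate 3 and TrxR1/Gsr-null replicate 4 (adjusted p from 0.0202 to 0.124) and again when genes with low values were kept in the fit (adjusted p = 0.069).

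Smad7, an inhibitory Smad that BMP signals also induce, read 4.08, 3.94, 3.90 and 4.59 in TrxR1/Gsr-null livers, against 5.14, 5.18, 4.82 and 5.49 in WT livers, without overlap. It fell 2.04-fold (adjusted p = 0.0215), a call that was lost when WT replicate 2, or any of TrxR1/Gsr-null replicates 1 to 3, was omitted (adjusted p up to 0.0736). Il6ra, the receptor subunit for interleukin 6, read 5.95, 6.86, 7.82 and 6.87 in TrxR1/Gsr-null livers, against 8.37, 8.66, 8.25 and 8.20 in WT livers, also without overlap. It fell 2.82-fold (adjusted p = 0.0281), a call that was lost when its probe sets were averaged (adjusted p = 0.0517) or when WT replicate 2 or 3, or one of TrxR1/Gsr-null replicates 1, 2 and 4, was omitted (adjusted p up to 0.0736). Without WT replicates 3 and 4, the arrays with the narrower range, neither was called (adjusted p = 0.0509 for Smad7 and 0.0791 for Il6ra), while Id1 was (adjusted p = 0.0222).

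All 3 falls were called within replicates 1 and 2 and none within replicates 3 and 4. Id1 differed by -2.16 within replicates 1 and 2 (adjusted p = 0.0124) and by -0.88 within replicates 3 and 4 (adjusted p = 0.336). Smad7 differed by -1.15 (adjusted p = 0.0172) and -0.91 (adjusted p = 0.206) in the same pairs. Il6ra differed by -2.11 (adjusted p = 0.0186) and -0.88 (adjusted p = 0.214). Whether the pairs differ was not tested. Smad4, the common Smad partner, averaged 9.41 ± 0.10 in TrxR1/Gsr-null livers and 9.11 ± 0.16 in WT livers and was not called (adjusted p = 0.324).

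Of 11 transcription factors linked to heme, 1 was called higher and none lower. Bach1, a repressor that competes with Nrf2 at Hmox1 and is released by heme, read 9.05, 9.37, 8.93 and 9.84 in TrxR1/Gsr-null livers, against 8.51, 8.38, 8.23 and 7.95 in WT livers. The groups did not overlap, and Bach1 rose 2.04-fold (adjusted p = 0.0293), a call that remained in 2 of the 8 fits that leave out 1 array, which omit WT replicate 1 and TrxR1/Gsr-null replicate 3 (adjusted p from 0.0305 to 0.0843). It was also not called within replicates 1 and 2 (0.76, adjusted p = 0.0681), within replicates 3 and 4 (1.298, adjusted p = 0.112) or without WT replicates 3 and 4 (0.85, adjusted p = 0.131). With the mean of its probe sets the difference was 0.57 and was not called (adjusted p = 0.096). Nfe2l2, the gene of Nrf2 itself, averaged 8.95 ± 0.33 in TrxR1/Gsr-null livers and 9.51 ± 0.24 in WT livers and was not called (adjusted p = 0.157).

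Of 12 genes of mitochondrial iron and iron-sulfur assembly, 1 was called higher and none lower. Slc25a37, mitoferrin 1, the importer that brings iron into mitochondria and is known above all from erythroid cells, read 8.41, 8.32, 7.67 and 8.54 in TrxR1/Gsr-null livers, against 6.82, 7.11, 7.13 and 6.47 in WT livers. The groups did not overlap, and Slc25a37 rose 2.56-fold (adjusted p = 0.00895), with 1.40 within replicates 1 and 2 (adjusted p = 0.0132) and 1.31 within replicates 3 and 4, where it was not called (adjusted p = 0.125). Cisd1, an iron-sulfur protein of the outer membrane, averaged 11.67 ± 0.12 in TrxR1/Gsr-null livers and 11.85 ± 0.02 in WT livers (adjusted p = 0.515).

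**Figure D4:**
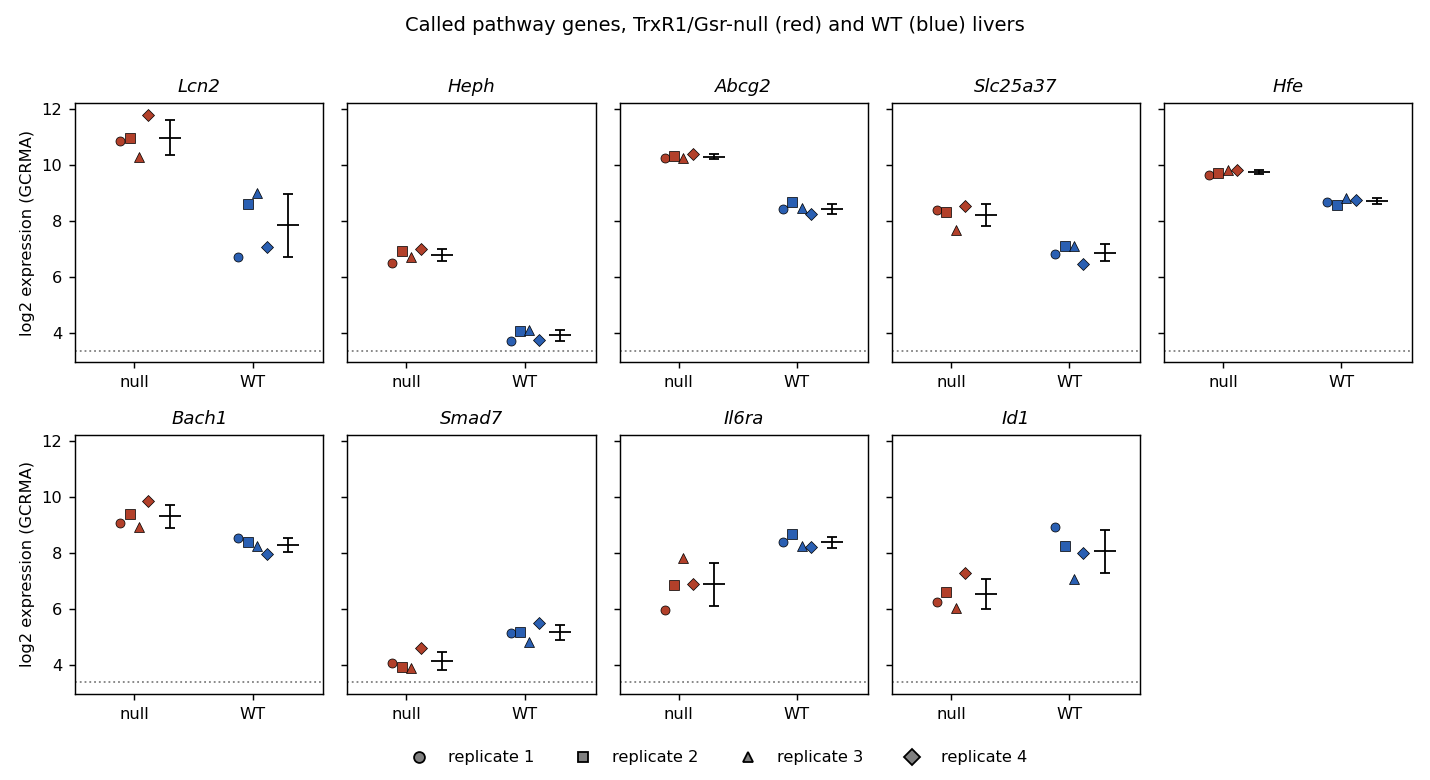
Log2 expression (y axis) of the 9 called genes of the heme and iron lists in 4 TrxR1/Gsr-null livers (red, left) and 4 WT livers (blue, right). Symbols mark the replicate number, bars give the mean ± SD (n = 4), and the dotted line is the low-value limit of 3.38. Id1 is the single gene of the 9 whose groups overlap.

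Markers of other cells were read beside these results, because in bulk tissue fewer cells of a type and less RNA per cell cannot be told apart. Alb, which marks hepatocytes, read 13.28 to 14.30 in TrxR1/Gsr-null livers and 14.05 to 14.61 in WT livers. None of 10 hepatocyte markers was called in the limma fit (0 higher and 1 lower at an unadjusted p below 0.05). However, 9 of the 10 differences were negative, against 3008 of 7534 over all genes. The log2 of the summed level of the 10 markers was 15.94 to 16.4031 in TrxR1/Gsr-null livers and 16.4038 to 16.60 in WT livers. The groups thus did not overlap, by a very small gap, and the part of this sum in the results was not tested. Of 11 Kupffer cell and macrophage markers, the cells best known for Slc48a1 and Hmox1, none was called. At an unadjusted p below 0.05, 0 were higher and 4 lower, against 14.9% and 7.92% of all genes. For Clec4f and Vsig4 all TrxR1/Gsr-null values lay below all WT values, as for 5.84% of all genes. The log2 of the summed level of the 11 was 12.63 to 13.11 in TrxR1/Gsr-null livers and 12.83 to 13.57 in WT livers. The ranges of this sum overlap, and 4 of the 11 differences were positive and 7 negative. The part of these cells in the Slc48a1 result was not tested.

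Erythroid markers are of interest for Tfrc and Slc25a37. Of 7 measured, Hba-a1, Gata1 and Rhag stayed under the low-value limit on all arrays, 3 were tested, and none was called (1 higher at an unadjusted p). Their log2 summed level was 5.70 to 6.23 in TrxR1/Gsr-null livers and 5.77 to 5.86 in WT livers. Alas2, the erythroid 5-aminolevulinate synthase, counted above among the heme synthesis genes, was above the low-value limit on all arrays. It read 5.84, 5.91, 7.09 and 6.19 in TrxR1/Gsr-null livers, against 7.17, 6.18, 6.24 and 6.59 in WT livers, with overlap, and was not called (adjusted p = 0.645). The part of erythroid cells in the Tfrc and Slc25a37 results was not tested. All 9 cell cycle genes had positive differences, with a median of 1.08. Over all genes, 4526 of 7534 differences were positive, with a median of 0.10. Of the 9, 1, Rrm2, was called higher (3.21-fold, adjusted p = 0.0399). At an unadjusted p below 0.05, 3 were higher and 0 lower. The log2 summed level of the 9 was 10.86 to 11.11 in TrxR1/Gsr-null livers and 9.91 to 11.20 in WT livers. WT replicate 1 was the highest WT liver for each of the 9. Mki67, for example, read 6.85, 7.13, 7.53 and 7.43 in TrxR1/Gsr-null livers, against 8.43, 5.33, 4.24 and 5.38 in WT livers. The part of cell cycle genes in the Tfrc result was not tested.

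Acute phase genes, which respond to the signals that also drive Hamp and Lcn2, gave 1 of 11 called higher, Saa3 (2.78-fold, adjusted p = 0.0231), and none lower. At an unadjusted p below 0.05, 3 were higher and 0 lower. Of the 11 differences, 7 were positive and 4 negative, and they ran from -0.35 to 1.47. The log2 summed level, in which the brightest genes weigh most, was 15.23 to 15.42 in TrxR1/Gsr-null livers and 15.18 to 15.51 in WT livers. The part of acute phase genes in the Lcn2 result was not tested. Of the other lists, liver endothelial (9 genes tested) and stellate cell (7 genes) markers had no call (0 higher and 1 lower, and 0 and 0, at an unadjusted p). Of 5 bile duct markers measured, 3 passed the filter, and of these Epcam was called higher (1.92-fold, adjusted p = 0.041). Differences of the 3 ran from -0.19 to 0.94, with 2 positive and 1 negative. Epcam read 2.89, 3.31, 3.01 and 2.51 in WT livers and 3.36 in TrxR1/Gsr-null replicate 3, all under the low-value limit of 3.38. Its mean over all arrays, 3.40, was just above that limit, so its fold rests on values near background.

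**Figure D5:**
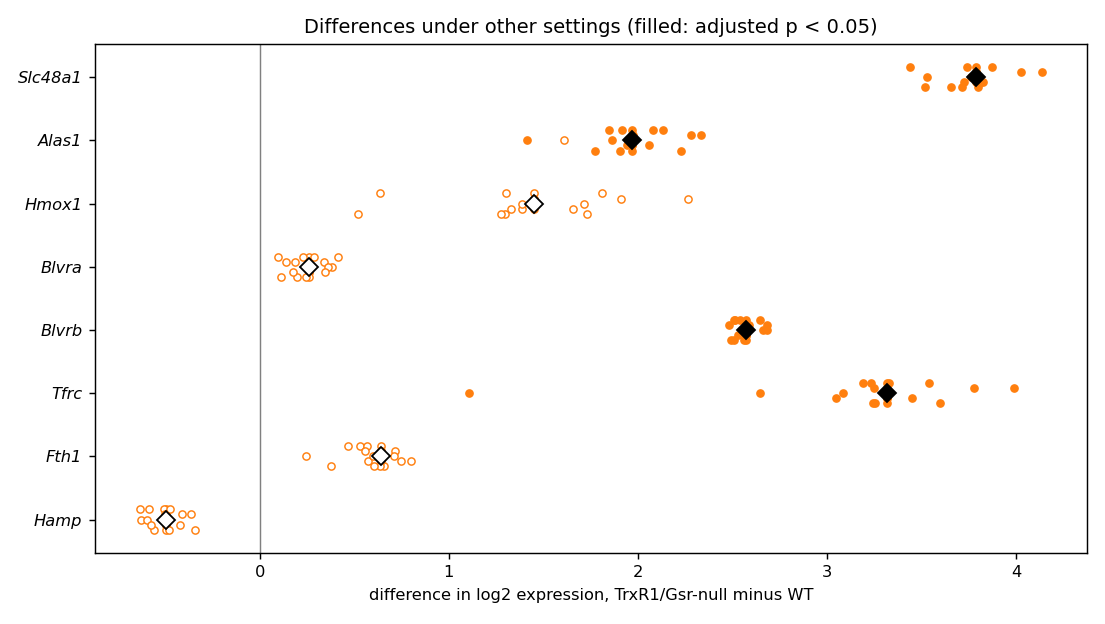
Difference in log2 expression, TrxR1/Gsr-null minus WT (x axis), of the 8 measured genes in the reported fit (black diamonds) and under the alternatives (orange points), filled where the adjusted p was below 0.05. Slc48a1, Blvrb and Tfrc stay called throughout, with Tfrc lowest, at 1.11, for the mean of its probe sets, and Alas1 misses a call once.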

How the data were processed

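Total RNA of 8 livers was measured on 1 array each. The deposited table holds log2 values per probe set (0.53 to 14.6), made with GCRMA per the submitters' processing notes. Its version and options were not given in the sources used here, and the log2 scale was read from the values. Its background model compresses dim probe sets, which bears on the folds of Heph, Hmox1, Epcam and the dim Tfrc sets. Precision is limited by the number of arrays, 4 a group.

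Of 22690 probe sets, 64 are controls; the platform annotation gives 1 gene for 20380, more for 691 and no gene for 1555. Symbols were updated through a RefSeq table of GRCm38.p6 (20351 identifiers matched). Per gene the brightest probe set by mean was kept, with _x_at sets set aside where another kind existed. Genes in the lowest 40% by mean (low-value limit 3.38) were dropped if fewer than 4 arrays exceeded it, leaving 7534 of 12393 genes. All 8 measured member genes passed.

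The test was limma 3.58.1 under R 4.3.3 (lmFit and eBayes, two-sided, no covariates, Benjamini-Hochberg), over genes and, without the filter, over 22626 probe sets. The control-named Tfrc probe sets were tested in a fit with controls included, added after seeing the data. In simulated data of the same size (7534 genes, 200 changed), 4.48%, 34.3% and 97.0% of changes of 0.5, 1 and 2 log2 units were called, with 2.17% false calls, so an uncalled gene may still differ. The limma p-values set each difference against the spread between animals of a group, with the variance estimate shared in part over all features tested.

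The member genes, the lists, the tests and the motifs were chosen with earlier results of these data known. The text names all member genes, each called gene of a pathway list, 1 or 2 of the 2 uncalled ones with the highest mean, called marker genes and the 3 genes most like the member with the largest difference. The rule was to name both uncalled ones in each list. Left out were Pgrmc1 (log2 difference 0.38, without overlap), Steap4 (-0.16), Pcbp1 (0.38), Stat3 (-0.41), Nr1d2 (0.02) and Fdx1 (-0.43), none of them called. Alb, Clec4f, Vsig4, Alas2, Hba-a1, Gata1, Rhag and Mki67 were named after their values were seen.

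Deviations from the group means correlated at 0.21 to 0.37 in all 4 pairs of same-numbered replicates, numbers that come from the titles, so same-numbered samples were treated as pairs in the block fit. Differently numbered livers among replicates 1 and 2, or among 3 and 4, correlated as much (0.20 to 0.40), so the pattern sets replicates 1 and 2 apart from 3 and 4 rather than marking the number.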

Additional observations from a re-analysis of the deposited data

Results flagged for a closer look

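In groups of 4, a value was looked at again where its gap to the nearest other value took up more of the group's range than Dixon's 95% critical value allows. Chance alone flags about 1 in 20 such groups, and 2 of 52 were. At the second Alas1 probe set WT replicate 4 read 9.687, against 8.20 to 8.38 in the other WT livers, while at the brighter Alas1 probe set it lay inside its group. At the second Hamp probe set TrxR1/Gsr-null replicate 3 read 11.82, against 12.45 to 12.48 in the other TrxR1/Gsr-null livers, and it was also the lowest of its group at the brighter one. TrxR1/Gsr-null replicate 4 for Hmox1, at 8.05, came close, with a gap of 0.815 of the range.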

How the results depend on the processing

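Slc48a1, Blvrb and Tfrc were called, and Hmox1, Blvra, Fth1 and Hamp were not, under every alternative that gave a value, none with a change of direction. Alas1 was called in all but the fit within replicates 3 and 4 (1.61, adjusted p = 0.098). Slc48a1 and Fth1 have no value when sets of the _a, _s and _x kinds are left out, nor Hmox1 with the lowest 60% of genes left out. The replicate block changed no call among the member genes. With 1 array left out in turn, differences were 3.51 to 4.03 for Slc48a1, 1.77 to 2.23 for Alas1, 2.49 to 2.68 for Blvrb, 3.04 to 3.60 for Tfrc and 0.52 to 1.91 for Hmox1. Pathway genes called higher numbered 2 within replicates 3 and 4. Pathway genes called lower numbered 8 with array weights, 5 with the replicate block, 7 with replicates 1 and 2 against 3 and 4 as a block, 7 within replicates 1 and 2, 0 within replicates 3 and 4, and 0 to 2 with 1 array left out (0 when WT replicate 2, TrxR1/Gsr-null replicate 1 or TrxR1/Gsr-null replicate 2 was the one omitted, and 1 for TrxR1/Gsr-null replicate 3). The causes were not tested. Of probe sets near 0, the second Fth1 set turned to 0.20 without WT replicates 3 and 4 and to 0.18 within replicates 3 and 4, and ran from -0.41 to 0.14 with 1 array left out, positive without WT replicate 4 (0.00072) and TrxR1/Gsr-null replicate 1 (0.14) or 2 (0.017). A Tfrc set under the low-value limit turned to 0.0045 with array weights and 0.11 without WT replicates 3 and 4, and ran from -0.21 to 0.030 with 1 array left out, positive without WT replicate 4. Other scalings moved the median difference of all genes from 0.10 to 0.03 (median centring) and -0.01 (quantile normalization).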
